A study of Homo sapiens with 9 samples.

Results

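ISG15 and the enzymes that attach it to proteins and remove it again were examined at the RNA level in TE13 cells, an established human esophageal squamous cell carcinoma (ESCC) line, after siRNA knockdown of PARylator (LINC00885), a long noncoding RNA. The members were taken by name, with no threshold on a measured value. They are ISG15, UBA7, UBE2L6, HERC5, HERC6 and USP18, which are 6 of the 60605 genes in the deposited table, with 1 row each. All 6 passed the filter on low values, set at 0.1 FPKM on average across all 9 libraries, as did 21397 genes in total. FPKM is the count of a gene scaled by its exonic length and by the total count of the library, so that levels of different genes can be set side by side.

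Poly(A)+ RNA was sequenced from TE13 cells that had received 1 of 3 siRNAs: control siRNA, PARylator siRNA.1 and PARylator siRNA.2. Each condition has 3 libraries, described as biological replicates. All 3 conditions share the cell line and the delivery of an siRNA, and no cells without siRNA were analysed here. The design has a single control siRNA. Its sequence and the time from transfection to harvest are not given in the sources used here. Per library, between 15337917 and 17899074 reads were counted in genes after control siRNA, between 15374616 and 17762752 after siRNA.1, and between 19213164 and 22559998 after siRNA.2.

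ISG15 is a ubiquitin-like protein whose gene is among the classical interferon-stimulated genes. Its conjugation to target proteins, ISGylation, follows the ubiquitin scheme: UBA7 is the activating enzyme (E1), UBE2L6 the conjugating enzyme (E2) and HERC5 the main ligase (E3) in human cells, while USP18 is the protease that removes ISG15. HERC6 is the closest relative of HERC5 and the main ISG15 ligase in mice, where HERC5 is missing. USP18 has a further role, apart from its protease activity, as a brake on the type I interferon receptor, for which free ISG15 stabilizes it in human cells.

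Interferon-stimulated genes are commonly switched on through the interferon-stimulated response element (ISRE), so the promoters of the members were searched for its core, GAAANNGAA, on both strands. RefSeq promoter windows from 250 bases before to 50 bases after the gene start were at hand for 4 of the 6 members, in 5 windows. ISG15 and HERC5 each held 3 matches of the core, and the windows of HERC6 and UBE2L6 held 0. UBA7 and USP18 had no entry. Of all 35116 windows of the same length, 8.11% held at least 1 match and 0.701% at least 2. The ISG15 and HERC5 stretches are shown because they carry these matches, which overlap each other in part. Both give the plus strand of GRCh38.p14 over 120 bases, from position -150 to -31, with the matched letters in capitals. Position 0 is the first base of the gene in RefSeq, which for ISG15, HERC6 and UBE2L6 lies inside the longer gene model of the deposited table. The UBE2L6 windows stop short of the start of its model, so the bases before that start were not searched.
ISG15, chr1:1013347-1013466: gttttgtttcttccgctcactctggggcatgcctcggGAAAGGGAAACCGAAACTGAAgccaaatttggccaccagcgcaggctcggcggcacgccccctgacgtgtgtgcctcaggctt
HERC5, chr4:88456969-88457088: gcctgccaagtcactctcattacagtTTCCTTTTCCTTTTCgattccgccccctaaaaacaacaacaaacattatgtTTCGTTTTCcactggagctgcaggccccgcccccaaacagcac
In ISG15 the 3 matches form a single run on the gene's own strand, from position -113 to -93. In HERC5 all 3 lie on the opposite strand, a pair that overlaps between -124 and -110 and a further match between -73 and -65. A second motif, the gamma-activated sequence (GAS, TTCNNNGAA), had 0 matches in the 5 windows and at least 1 in 7.66% of all windows. A match describes the letters only, and a window without one says nothing about a factor's binding.

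**Figure D1:**
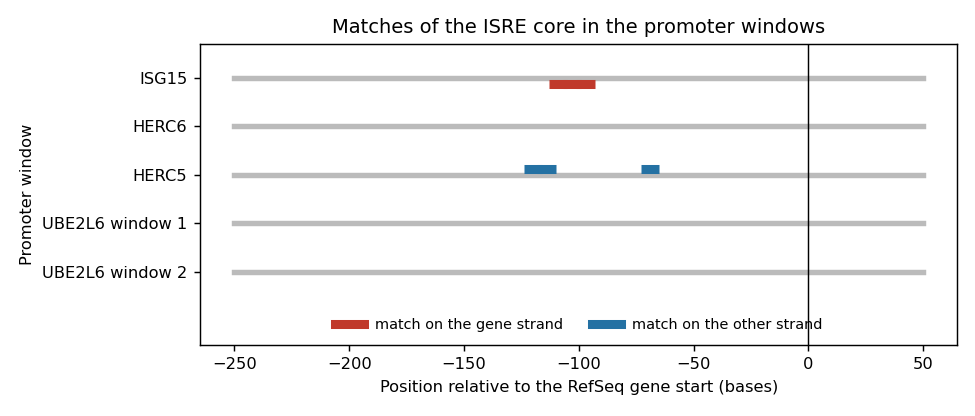
Positions of ISRE core matches (x axis, bases relative to the RefSeq gene start) in the 5 promoter windows of ISG15, HERC6, HERC5 and UBE2L6 (grey bars, from 250 bases before to 50 after the start). ISG15 has a single run of 3 matches on its own strand, HERC5 has 3 matches on the other strand, and the other 3 windows have 0.

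ISG15 itself (ENSG00000187608, chromosome 1, 1001138 to 1014540, plus strand, GRCh38) was already abundant after control siRNA, at 103.02, 99.52 and 97.75 FPKM in the 3 libraries. It was at 534.53, 485.60 and 498.11 FPKM in the siRNA.1 libraries, and at 421.61, 423.10 and 431.55 FPKM in the siRNA.2 libraries. The 3 conditions did not overlap: the siRNA.1 libraries were highest, the siRNA.2 libraries lay below them, and all 6 stood far above the control libraries. ISG15 ranked 322nd by mean FPKM among the 28065 genes above 0 after control siRNA, 37th of 28157 after siRNA.1 and 48th of 28836 after siRNA.2. Its level rose 4.96-fold after siRNA.1, a log2 fold change of 2.31 (95% confidence interval, 2.22 to 2.40), and 4.22-fold after siRNA.2, a log2 fold change of 2.08 (1.99 to 2.17). Both adjusted p-values from edgeR's quasi-likelihood test were too small for the software to hold. The size of such p-values, also for the other members that rose, depended on the test. With limma on log2(FPKM + 1) the adjusted p of ISG15 after siRNA.1 was 9.3e-09. Because these are bulk samples, a change in RNA per cell and a change in the share of cells that express a gene cannot be told apart, here and for every gene that follows. The gene model of ISG15 overlaps a processed pseudogene and a lncRNA on the opposite strand, with at most 2 and 19 counts in any library, against at least 1345 counts for ISG15.

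The activating enzyme UBA7 (ENSG00000182179, chromosome 3, 49805209 to 49813953, minus strand), which loads ISG15 at the start of the cascade, passed the test with neither siRNA. Its level was 2.16, 2.30 and 2.47 FPKM after control siRNA, 2.66, 2.39 and 1.94 FPKM after siRNA.1, and 2.85, 2.29 and 1.96 FPKM after siRNA.2. The ranges of the 3 conditions overlapped, and both siRNA groups were more widely spread than the control group. The log2 fold change was -0.02 after siRNA.1 (95% confidence interval, -0.29 to 0.26, edgeR adjusted p = 0.956) and 0.02 after siRNA.2 (-0.25 to 0.29, edgeR adjusted p = 0.959). These intervals run from 0.816-fold to 1.20-fold after siRNA.1 and from 0.839-fold to 1.22-fold after siRNA.2, and overlap the interval of no other member. UBA7 was counted at between 151 and 257 reads per library.

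The conjugating enzyme UBE2L6 (ENSG00000156587, chromosome 11, 57551656 to 57568284, minus strand) takes ISG15 over from UBA7. It varied very little within a condition, with 25.20, 25.26 and 25.39 FPKM under control siRNA. Its levels were 75.90, 77.22 and 76.39 FPKM after siRNA.1, and 70.45, 74.23 and 70.66 FPKM after siRNA.2. Every siRNA library was far above every control library, and the siRNA.2 libraries lay just under the siRNA.1 libraries. UBE2L6 rose with a log2 fold change of 1.57 after siRNA.1 (SE, the standard error, 0.06, edgeR adjusted p = 2.12e-165) and 1.49 after siRNA.2 (SE 0.06, edgeR adjusted p = 2.46e-151).

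HERC5 (ENSG00000138646, chromosome 4, 88457119 to 88506163, plus strand), the ligase, had 7.64, 9.18 and 8.24 FPKM in the control libraries. After siRNA.1 it was at 20.59, 21.20 and 20.87 FPKM, and after siRNA.2 at 18.93, 18.51 and 17.38 FPKM. It rose with a log2 fold change of 1.29 after siRNA.1 (SE 0.06, edgeR adjusted p = 1.08e-87) and 1.12 after siRNA.2 (SE 0.06, edgeR adjusted p = 8.64e-66). These were the smallest changes among the 5 members that rose, and the 3 conditions did not overlap.

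HERC6 (ENSG00000138642, chromosome 4, 88378739 to 88443097, plus strand) lies next to HERC5 on the same strand, 14022 bases from its end to the start of HERC5. The libraries of HERC6 held 6.65, 5.92 and 5.82 FPKM after control siRNA, 18.13, 17.77 and 18.18 FPKM after siRNA.1, and 18.21, 16.62 and 18.18 FPKM after siRNA.2. The siRNA groups overlapped each other and were both clear of the control group. HERC6 rose with log2 fold changes of 1.53 (SE 0.06, edgeR adjusted p = 5.19e-123) and 1.52 (SE 0.06, edgeR adjusted p = 8.81e-123). Both genes of this neighbouring pair rose. The HERC6 window, set by a RefSeq start inside its gene model, held 0 matches of the ISRE core where that of HERC5 held 3.

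USP18 (ENSG00000184979, chromosome 22, 18150170 to 18177397, plus strand), the protease that reverses ISGylation, had 7.33, 6.73 and 6.92 FPKM after control siRNA. Its levels were 34.54, 36.62 and 36.93 FPKM in the siRNA.1 libraries and 29.28, 30.76 and 25.93 FPKM in the siRNA.2 libraries. No 2 conditions overlapped, and the spread was widest after siRNA.2. USP18 rose 5.05-fold after siRNA.1, a log2 fold change of 2.34 (SE 0.09, edgeR adjusted p = 2.85e-162), and 4.06-fold after siRNA.2, a log2 fold change of 2.02 (SE 0.09, edgeR adjusted p = 1.59e-120). USP41 is nearly identical to USP18 in sequence, so that reads of either could have been assigned to the other, and it had at most 2 counts in any library. The low count of USP41 does not show how such reads were assigned. The deposited table gives USP18 an exonic length of 1858 bases, whereas GENCODE release 44 gives 4095, so its FPKM relative to other genes depends on the gene model. The length cancels in its fold changes, but which reads are counted also depends on the model, and no recount under the longer model was made.

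**Figure D2:**
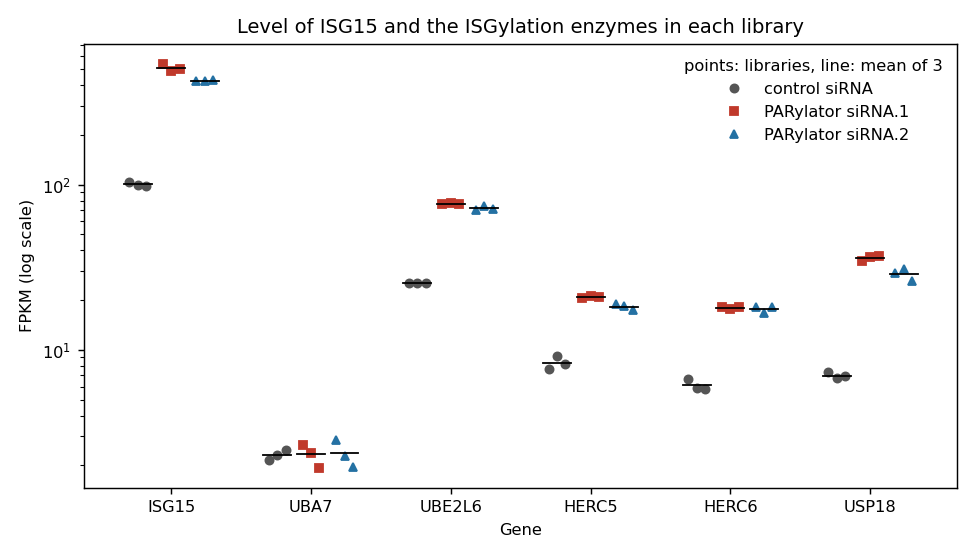
FPKM on a log scale (y axis) of ISG15, UBA7, UBE2L6, HERC5, HERC6 and USP18 (x axis) in each of the 9 libraries, with points for libraries and a line at the mean of the 3 libraries of a condition. All siRNA libraries lie above all control libraries for every gene except UBA7, whose conditions overlap.

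In all, 5 of the 6 members were higher after siRNA.1 and 5 of 6 after siRNA.2, at an adjusted p under 0.05, and 0 were lower. Among all genes tested, 15.0% were higher after siRNA.1 and 15.8% after siRNA.2, and 11.1% were higher with both. For the same 5 members all libraries of each siRNA lay above all control libraries, which held for 20.7% of genes after siRNA.1 and 21.1% after siRNA.2. The comparisons share the control libraries. All 5 had a log2 fold change of 1 or more with each siRNA beside an adjusted p under 0.05, and 2.43% of all genes met both conditions after siRNA.1 and 2.31% after siRNA.2. The median log2 fold change of the 6 members was 1.55 after siRNA.1 and 1.51 after siRNA.2, beside -0.00053 and 0.00402 over all genes tested. Together the members took 0.0234% to 0.0240% of the counts in the control libraries, 0.0863% to 0.0899% after siRNA.1 and 0.0765% to 0.0774% after siRNA.2.

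**Figure D3:**
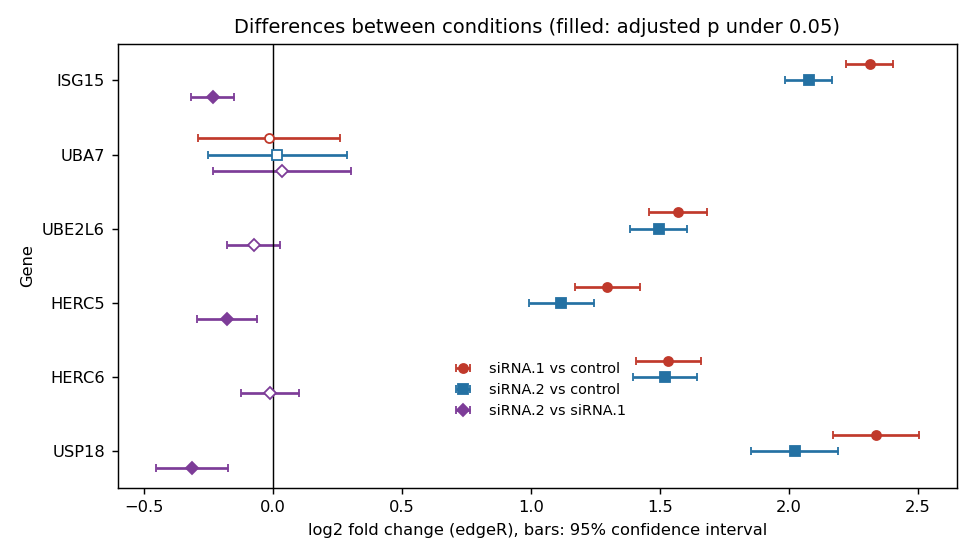
Log2 fold changes from edgeR (x axis) of the 6 members (y axis) for siRNA.1 against control, siRNA.2 against control and siRNA.2 against siRNA.1, with 95% confidence intervals as bars and filled points for an adjusted p under 0.05. ISG15 and USP18 changed most, at 2.02 or more, the intervals of UBA7 include 0, and the direct differences between the siRNAs were at most 0.32 in size.

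The level order of the members changed in 1 respect. After control siRNA it was ISG15, UBE2L6, HERC5, USP18, HERC6 and UBA7, from 100 ± 2.68 FPKM (SD, n = 3) for ISG15 to 2.31 ± 0.155 FPKM for UBA7, and no neighbours in this order overlapped between libraries. With both siRNAs USP18 stood above HERC5, at 36.0 ± 1.30 against 20.9 ± 0.305 FPKM after siRNA.1 (SD, n = 3) and 28.7 ± 2.47 against 18.3 ± 0.802 FPKM after siRNA.2. HERC5 and HERC6 overlapped after siRNA.2, where HERC6 was at 17.7 ± 0.909 FPKM. The place of USP18 in this order rests on the exonic length named above. The ratio of HERC5 to USP18 within a library, by contrast, can be compared between conditions without regard to the length: it was 1.04 to 1.36 after control siRNA, 0.565 to 0.596 after siRNA.1 and 0.602 to 0.670 after siRNA.2.

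Within each library, ISG15 was set against each enzyme as a ratio of FPKM, to see whether the modifier and its machinery rose in step. ISG15 and its protease did: the ratio of ISG15 to USP18 was 14.0 to 14.8 after control siRNA, 13.3 to 15.5 after siRNA.1 and 13.8 to 16.6 after siRNA.2, and the 3 ranges overlapped. Against the E2 and the ligases ISG15 pulled ahead. The ratio to UBE2L6 went from 3.85 to 4.09 after control siRNA to 6.29 to 7.04 after siRNA.1 and 5.70 to 6.11 after siRNA.2. For HERC5 the ratio was 10.8 to 13.5, 22.9 to 26.0 and 22.3 to 24.8 in the same order, and for HERC6 15.5 to 16.8, 27.3 to 29.5 and 23.2 to 25.5. No siRNA library overlapped the control libraries in any of these 3 ratios. The gap was widest against the E1, UBA7: ISG15 was at 39.6 to 47.6 times the FPKM of UBA7 after control siRNA, 201 to 257 times after siRNA.1 and 148 to 220 times after siRNA.2. These are ratios of RNA, and the amounts of the proteins were not measured in these libraries.

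**Figure D4:**
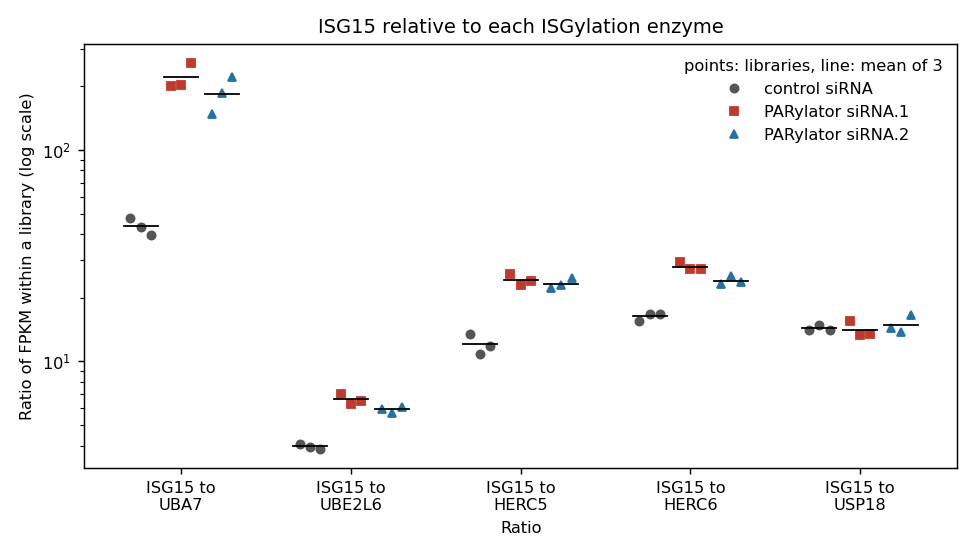
Ratio of the FPKM of ISG15 to that of each enzyme within a library, on a log scale (y axis), for the 5 enzymes (x axis), with points for the 9 libraries and a line at the mean of each condition. The ratio to USP18 stays between 13.3 and 16.6 in all libraries, while the other 4 ratios are higher in every siRNA library than in any control library.

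The siRNAs were compared directly to ask whether they moved the members to the same extent. Lower after siRNA.2 than after siRNA.1 were 3 of the 6 members, and 0 were higher. Of all genes tested, 12.2% differed between the siRNAs, 6.07% lower and 6.10% higher after siRNA.2. The libraries of 4 members (ISG15, UBE2L6, HERC5 and USP18) did not overlap, after siRNA.2 lower, which held for 13.1% of all genes. USP18 differed most, with a log2 difference of -0.32 (95% confidence interval, -0.46 to -0.18, edgeR adjusted p = 0.000233), followed by ISG15 at -0.23 (-0.32 to -0.15, edgeR adjusted p = 1.43e-06). HERC5 differed by -0.18 (-0.29 to -0.06, edgeR adjusted p = 0.0263). The call for HERC5 was lost without replicate 2 or 3 of siRNA.1 (edgeR adjusted p = 0.0724 and 0.0787) or replicate 3 of siRNA.2 (edgeR adjusted p = 0.1999), and with limma (adjusted p = 0.126 on log2(FPKM + 0.1) and 0.114 on log2(FPKM + 1)). For UBE2L6 the difference was -0.08 (-0.18 to 0.03, edgeR adjusted p = 0.432), for HERC6 -0.01 (-0.13 to 0.10, edgeR adjusted p = 0.946), and for UBA7 0.03 (-0.23 to 0.30, edgeR adjusted p = 0.936). Those 3 did not pass the threshold, which does not show that the siRNAs acted alike on them.

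The targeted RNA gives no scale for these differences in these libraries. The authors measured the knockdown by qPCR, apart from these libraries. Counts of LINC00885 were 6, 7 and 12 in the control libraries, 4, 5 and 2 after siRNA.1 and 2, 0 and 4 after siRNA.2, and neither log2 fold change passed the threshold (-1.21, edgeR adjusted p = 0.376, and -2.33, adjusted p = 0.0659). Of 8 squamous epithelial markers, among them KRT5, TP63 and CDH1, all were above a mean of 1 FPKM in each condition. Their summed level was 905 to 916 FPKM after control siRNA, 662 to 693 after siRNA.1 and 654 to 677 after siRNA.2, and 1 of 8 was higher and 5 lower with each siRNA. The 10 blood cell markers summed to 5.54 to 6.63 FPKM after control siRNA, 7.89 to 8.81 after siRNA.1 and 7.41 to 8.73 after siRNA.2. Of the 6 of these 10 that were tested, 4 were higher and 1 lower with each siRNA. Of all genes tested, 15.0% were higher and 15.2% lower after siRNA.1, and 15.8% and 15.1% after siRNA.2. LYZ, FCER1G, PTPRC and CSF1R were higher, each from a mean of 0.49 FPKM or less after control siRNA. Their log2 fold changes were 3.08, 2.41, 2.15 and 0.855 after siRNA.1, and 3.24, 2.89, 2.12 and 0.63 after siRNA.2. LAPTM5, with the highest mean of the 10 after control siRNA (4.95 FPKM), was lower, at -0.75 and -1.06. The B cell marker MS4A1 was at 0 in every condition. The 5 markers of plasmacytoid dendritic cells summed to 1.59 FPKM or less in every library, with LILRA4 at 0 throughout, and 7 stromal and endothelial markers to 3.90 FPKM or less. Of the former 2 were tested and 1 was higher with each siRNA, and of the latter 4 were tested and 3 were lower with each. The 6 members summed to 147 to 152 FPKM after control siRNA, 641 to 686 after siRNA.1 and 561 to 566 after siRNA.2. Mitochondrial genes took 7.46% to 7.66% of counts after control siRNA, 4.99% to 5.06% after siRNA.1 and 5.54% to 5.56% after siRNA.2. The part of these shifts in the results was not tested.

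Genes that work with or against the ISG15 system were read from a list of 14, of which 13 were tested. After siRNA.1, 3 were higher, 3 lower and 7 did not pass, and after siRNA.2, 4 were higher, 2 lower and 7 did not pass. Over all genes tested the shares were 15.0% higher and 15.2% lower after siRNA.1, and 15.8% higher and 15.1% lower after siRNA.2. Their median log2 fold changes were 0.13 and 0.00153, and none reached an absolute log2 fold change of 1. STAT2, which carries USP18 to the interferon receptor and is also part of the factor that binds the ISRE, was at 17.7 ± 1.02 FPKM (SD, n = 3) after control siRNA, 22.7 ± 1.18 after siRNA.1 and 20.8 ± 1.61 after siRNA.2. It rose by 0.33 and 0.22 on the log2 scale (edgeR adjusted p = 4.59e-09 and 0.000235). TRIM25, a ligase that has been reported to attach ISG15, rose by 0.19 and 0.17 (edgeR adjusted p = 0.00014 and 0.000595).

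The alternative ligase ARIH1 had log2 fold changes of 0.13 and 0.04 and passed with neither siRNA (edgeR adjusted p = 0.0641 and 0.673). It passed after siRNA.1 without siRNA.1 replicate 2 (edgeR adjusted p = 0.0373). UBE2E1, a further conjugating enzyme that can accept ISG15, rose by 0.18 after siRNA.1 (edgeR adjusted p = 0.0131, but 0.0581 without control replicate 2 and 0.114 without siRNA.1 replicate 3) and was at 0.11 after siRNA.2 (edgeR adjusted p = 0.204). IFNAR2, the receptor subunit on which USP18 acts as a brake, was at 0.903 ± 0.0839 FPKM (SD, n = 3) after control siRNA, and its log2 fold changes of 0.22 and -0.16 did not pass (edgeR adjusted p = 0.485 and 0.639). ITGB2, a subunit of the LFA-1 integrin that binds secreted ISG15, did not pass either (0.19 and -0.06, edgeR adjusted p = 0.365 and 0.838). ITGAL, the other subunit, was not tested and stood at 0.05 FPKM or less in every library. ITGB2 was at 1.31 ± 0.0917 FPKM (SD, n = 3) after control siRNA.

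Proteases other than USP18 that have been reported to cut ISG15 or to bind it moved in both directions. USP5 fell by 0.28 on the log2 scale after siRNA.1 and by 0.15 after siRNA.2 (edgeR adjusted p = 5.46e-06 and 0.0239). The call after siRNA.2 was lost without control replicate 3 or replicate 1 or 2 of siRNA.2 (edgeR adjusted p = 0.198, 0.163 and 0.0589), without the filter on low values (0.057) and in limma with either pseudocount (adjusted p = 0.0548 and 0.0547). USP13 fell by 0.69 after siRNA.1 (edgeR adjusted p = 1.43e-08) and was at -0.07 after siRNA.2 (edgeR adjusted p = 0.680). USP2, at 0.94 to 1.13 FPKM in control cells, was at -0.17 after siRNA.1 (edgeR adjusted p = 0.616) and fell by 0.64 after siRNA.2 (edgeR adjusted p = 0.0144), a call lost without control replicate 2 or replicate 1 or 3 of siRNA.2 (edgeR adjusted p = 0.0583, 0.0957 and 0.0621). Without replicate 1 of siRNA.2, 0 accessory genes were thus lower after siRNA.2. USP16 and USP21 rose after siRNA.2, by 0.24 and 0.31 on the log2 scale (edgeR adjusted p = 0.000235 and 0.00174), and did not pass after siRNA.1 (0.06 and 0.13, edgeR adjusted p = 0.487 and 0.273). USP14 passed with neither (-0.12 and 0.0015, edgeR adjusted p = 0.089 and 0.995), but did after siRNA.1 without control replicate 1 (edgeR adjusted p = 0.015). SKP2, part of the ubiquitin ligase that marks USP18 for degradation, fell by 0.32 after siRNA.1 (edgeR adjusted p = 2.97e-08). After siRNA.2 SKP2 was at -0.11 (edgeR adjusted p = 0.102), and it passed there with DESeq2 (-0.12, adjusted p = 0.0412). None of these genes came near the size of change of USP18.

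The other 4 HERC genes, which are ubiquitin ligases outside the ISG15 system, were all tested, and 0 of 4 passed with either siRNA. Of all genes tested, 15.0% were higher and 15.2% lower after siRNA.1, and 15.8% and 15.1% after siRNA.2. At these shares, 0 of 4 does not set the HERC genes apart from other genes. Without siRNA.1 replicate 2, HERC1 was at -0.22 after siRNA.1 and passed (edgeR adjusted p = 0.00574). HERC1, HERC2 and HERC4 had log2 fold changes between -0.10 and 0.05. HERC3, which lies near HERC5 and HERC6 on chromosome 4, was at 0.270 ± 0.0529 FPKM (SD, n = 3) after control siRNA and had log2 fold changes of 0.34 and 0.57 (edgeR adjusted p = 0.450 and 0.133). HERC3 is uncertain, since a second gene model overlaps it and reads could have been split between them.

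Proteins that have been reported to carry ISG15 were read from a list of 18 genes in the table. After siRNA.1, 9 were higher and 1 lower, and after siRNA.2, 11 were higher and 2 lower, beside the 15.0% and 15.8% of all genes that were higher. The 2 lower became 1 without control replicate 1, siRNA.1 replicate 3 or any 1 of the 3 siRNA.2 libraries. The list's medians were 0.14 and 0.22 on the log2 scale, and for 5 genes the log2 fold change was 1 or more with each siRNA. IFIT1, MX1 and IFIH1, which are named here, are interferon-stimulated genes themselves. IFIT1, which binds RNA without the cap methylation of the host, rose from 11.3 ± 1.03 FPKM (SD, n = 3) to 105 ± 2.27 and 89.2 ± 1.32, log2 fold changes of 3.19 and 2.97. MX1, a GTPase that blocks viral replication, rose from 7.80 ± 0.639 FPKM (SD, n = 3) to 38.7 ± 0.681 and 36.5 ± 0.346, log2 fold changes of 2.28 and 2.22. The edgeR p-values of both were too small for the software to hold. IFIH1, a sensor of double-stranded RNA, rose by 1.74 and 1.77 on the log2 scale (edgeR adjusted p = 5.85e-211 and 4.78e-219).

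Other ubiquitin-like systems served as a comparison, in a list of 30 genes made of 13 modifiers, 9 activating enzymes and 8 conjugating enzymes. After siRNA.1, 6 were higher, 5 lower and 19 did not pass, and after siRNA.2, 10 were higher, 6 lower and 14 did not pass, beside the 15.0% higher and 15.2% lower, and the 15.8% higher and 15.1% lower, of all genes. The 10 higher after siRNA.2 became 5 without siRNA.2 replicate 2, 6 without control replicate 1, control replicate 3 or siRNA.2 replicate 3, and 7 with RLE scaling, DESeq2 or the replicate block. The medians were 0.02 and 0.06 on the log2 scale, and for 1 gene of the 30 the log2 fold change was 1 or more in size. That gene was UBD, which encodes FAT10, another cytokine-induced modifier with 2 ubiquitin-like domains. UBD moved against ISG15: it fell from 3.37 ± 0.538 FPKM (SD, n = 3) after control siRNA to 0.807 ± 0.2203 after siRNA.1 and 0.997 ± 0.490 after siRNA.2. Its log2 fold changes were -2.09 (edgeR adjusted p = 6.74e-07) and -1.74 (edgeR adjusted p = 1.43e-05). These rest on few reads: 39 to 55 per library after control siRNA, 9 to 14 after siRNA.1 and 9 to 30 after siRNA.2. UFC1, the conjugating enzyme for the modifier UFM1, fell from 30.9 ± 3.33 FPKM (SD, n = 3) to 16.8 ± 0.661 and 16.8 ± 0.834, log2 fold changes of -0.91 and -0.90 (edgeR adjusted p = 3.13e-32 and 2.79e-32). FAU, whose product holds a ubiquitin-like part fused to a ribosomal protein, rose by 0.29 and 0.33 on the log2 scale (edgeR adjusted p = 1.93e-06 and 4.12e-08). UBA1, the main activating enzyme of ubiquitin, was at 42.8 ± 0.362 FPKM (SD, n = 3) after control siRNA, against the 2.31 FPKM of UBA7.

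**Figure D5:**
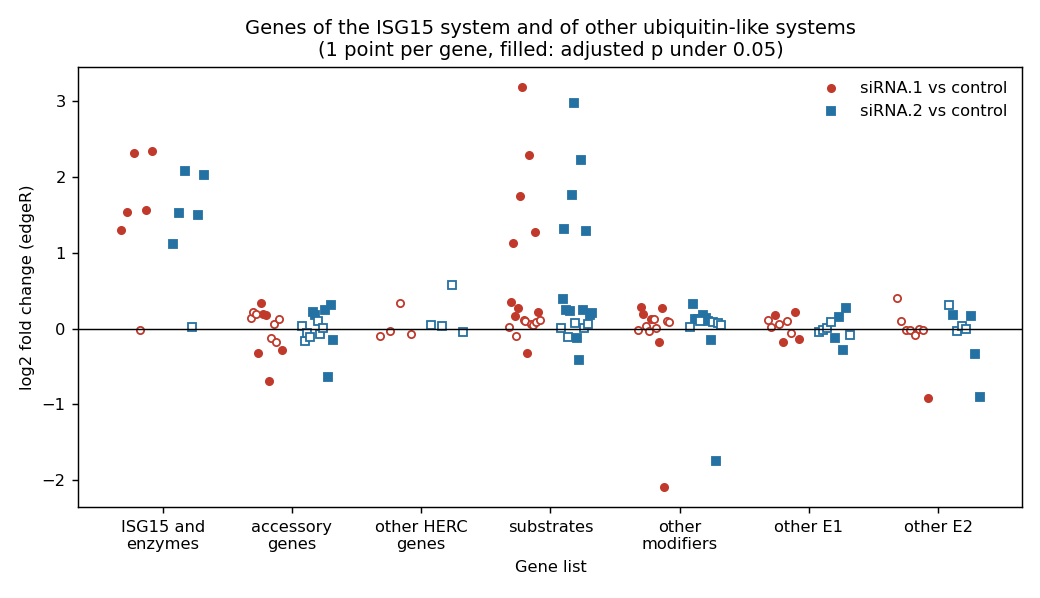
Log2 fold changes from edgeR (y axis) of each tested gene in 7 lists (x axis), with circles for siRNA.1 and squares for siRNA.2 against control and filled points for an adjusted p under 0.05. The 5 members that rose lie between 1.12 and 2.34, 5 substrates lie above 1, and the other lists lie within 1 of 0 apart from UBD.

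Across the 9 libraries, the genes whose level followed that of ISG15 most closely were ranked by Pearson's r of log2(CPM + 0.5) among the 11867 genes that averaged 1 FPKM or more. The first 5 outside the members were IFI6 (r = 0.998), RSAD2 (0.998), OAS1 (0.998), HLA-B (0.998) and TRIM22 (0.998). All 5 are known as interferon-stimulated genes, and their mean levels ran from 12.7 FPKM for TRIM22 to 426 FPKM for IFI6. Of the members, UBE2L6 ranked 9th (r = 0.997), USP18 22nd (0.996), HERC6 35th (0.994) and HERC5 62nd (0.990), whereas UBA7 ranked 6015th (-0.033). The libraries of a condition share that condition, so a gene that steps between conditions gets a high r, and 138 genes reached an r of at least 0.98. They are a description of 9 libraries in 3 groups, with no test.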

How the data were processed

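RNA-seq libraries of TE13 cells (3 conditions, 3 libraries each) were grouped by their labels. The authors aligned reads to GRCh38 with STAR and assigned them to genes with featureCounts, with versions, annotation release and strandedness not given in the sources used here. The authors deposited raw counts per gene and FPKM in a single table, whose columns name control siRNA as NC. FPKM recomputed from the counts, the deposited exonic lengths and the library totals differed from the deposited FPKM by at most 0.005.

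Counts were tested with edgeR 4.0.16 (R 4.3.3, TMM scaling, quasi-likelihood test). The 3 conditions entered 1 model without covariates, for the 21397 genes that averaged 0.1 FPKM or more. P-values were adjusted over all of these by the Benjamini-Hochberg method, and called under 0.05. SE was taken from the size of the log2 fold change over the root of F. The script was tested on simulated data. Libraries within a condition differed by more than sampling noise, so each counted as 1 sample. The spread in the main edgeR fit was in effect pooled over genes. Its p-values and intervals therefore do not measure the spread of a gene's own libraries. Counts of 151 or more per library stand behind every level of a member.

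Alternatives were RLE scaling, no filter, filterByExpr, DESeq2 1.42.0, limma 3.58.1 on log2(FPKM + 0.1) and log2(FPKM + 1), a replicate block, only the groups compared, a minimum log2 fold change of 1, and each library left out in turn. The members, gene lists and tests were chosen with earlier results of these data known, and the lists of accessory genes, substrates and other systems were written from recall. Genes were named by a rule: all members, accessory genes, HERC genes and near-identical copies, UBD, the 4 substrates and 4 genes of other systems with the largest mean change passing in the same direction with both siRNAs, and the 5 genes most correlated with ISG15. Of the genes this rule names, 1 substrate and 1 gene of other systems are not reported here. UBA1, TP63, KRT5, CDH1, LILRA4, MS4A1, LYZ, FCER1G, PTPRC, CSF1R and LAPTM5 fall outside it and were named after their values were seen. Positions are from the deposited table and GENCODE release 44, and promoter sequences from RefSeq (GRCh38.p14).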

Additional observations from a re-analysis of the deposited data

Results flagged for a closer look

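The effect of the siRNAs differed between siRNA.2 and siRNA.1 for 7 of the genes examined here (the members, the accessory and HERC genes, and the genes named among the substrates and the other systems), by the direct test of the difference in edgeR at an adjusted p under 0.05, a threshold that 12.2% of all genes tested passed. Among the members these were USP18, with a log2 difference of -0.3157 (siRNA.2 minus siRNA.1), ISG15, with -0.2346, and HERC5, with -0.1776. Each was higher than in control cells with both siRNAs and less so with siRNA.2. The substrate IFIT1 differed by -0.2191 in the same way. Of the accessory genes, 3 were higher with siRNA.2 than with siRNA.1: USP13 by 0.6186 on the log2 scale, SKP2 by 0.2095 and USP16 by 0.1777. In limma, with either pseudocount, neither USP13 (adjusted p = 0.0942 and 0.111) nor USP16 (0.106 and 0.105) passed, and USP16 did not pass without siRNA.1 replicate 1 or siRNA.2 replicate 3 (edgeR adjusted p = 0.145 and 0.198). The epithelial markers KRT5 and CDH1, which lie outside these lists, differed as well, by 0.50 and -0.38 (edgeR adjusted p = 1.65e-27 and 2.44e-22). The depth of the libraries differed as well, with the siRNA.2 libraries deepest, and LINC00885 was too low to show whether its own level differed between the siRNAs (log2 difference -1.13, adjusted p = 0.624 from edgeR). The part of either in these differences was not tested.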

How the results depend on the processing

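The counts of members higher with each siRNA, 5 of 6, were the same under all 9 alternatives and with each library left out in turn. Their adjusted p-values were far less small in limma. On log2(FPKM + 1), those after siRNA.1 were 9.3e-09 for UBE2L6, 2.83e-06 for HERC5, 6.1e-07 for HERC6 and 1.24e-07 for USP18. Requiring a log2 fold change of at least 1 moved the other counts: with each siRNA it left 0 accessory genes (6 otherwise), 5 substrates (10 with siRNA.1 and 13 with siRNA.2 otherwise) and 1 gene of the other systems (11 and 16 otherwise). Between the siRNAs it left 0 members, 0 accessory genes, 0 substrates and 0 genes of the other systems, against 3, 3, 3 and 4. There limma, with either pseudocount, left 1 accessory gene. Without a single library, the count of other-system genes that differed between the siRNAs ranged from 2 (without siRNA.2 replicate 3) to 7 (without siRNA.1 replicate 1). UBA7 changed sign around 0 without passing the threshold: with siRNA.1 it was at 0.0028 and 0.0039 in limma and ranged from -0.1322 to 0.1003 without a single library (0.0358 without control replicate 3), with siRNA.2 from -0.1267 to 0.1344 (-0.0278 without control replicate 1), and between the siRNAs from -0.1090 to 0.1521 (-0.0831 without siRNA.1 replicate 3). HERC6 between the siRNAs was at 0.0232 without siRNA.2 replicate 2, and ranged from -0.0405 to 0.0232 over the libraries left out. The HERC5 difference between the siRNAs did not pass in limma (-0.1927 and -0.1842) nor without any 1 of 3 libraries (-0.1716, -0.1769 and -0.1478). The cause was not tested. Deviations of same-numbered libraries correlated between -0.133 and 0.053, and those of other pairs of conditions' libraries between -0.057 and 0.126. The labels give replicate numbers only, and such correlations cannot exclude a pairing by number. With a replicate block 5 members were higher with each siRNA, and no member call changed. The substrate count with siRNA.2 was then 12 and that of other systems 13. At this depth LINC00885, ITGAL and USP41 were too low for a change to be measured.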

Other observations

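The genes on either side of the members on the chromosome were looked up after the data were seen, and those tested moved in both directions. Shares over all genes tested were 15.0% higher and 15.2% lower after siRNA.1, and 15.8% and 15.1% after siRNA.2. SERPING1 beside UBE2L6, PYURF after HERC5 and GGTLC3 after USP18 were not tested, with control means of 0.00667 FPKM or less. HES4, which lies 966 bases before the ISG15 gene model on chromosome 1, rose by 0.64 and 0.74 on the log2 scale with siRNA.1 and siRNA.2 (adjusted p = 5.7e-09 and 4.22e-12 from edgeR), while AGRN, 5580 bases after it, fell by 0.37 and 0.29 (adjusted p = 6.49e-20 and 1.86e-12 from edgeR). PPM1K, the gene before HERC6 on chromosome 4 at a distance of 93970 bases, rose by 0.89 and 0.69 (adjusted p = 1.49e-17 and 5.22e-11 from edgeR). On chromosome 11, SMTNL1 lies 1384 bases past the end of UBE2L6, which is on the minus strand. SMTNL1 rose by 1.79 with siRNA.1 (edgeR adjusted p = 0.00124) and was at 1.16 with siRNA.2 (edgeR adjusted p = 0.0586). Its mean in control cells was 0.277 FPKM. INKA1 lies 179 bases past the end of UBA7, which is also on the minus strand. INKA1 fell by 0.69 with siRNA.1 (edgeR adjusted p = 0.0329) and was at -0.08 with siRNA.2 (edgeR adjusted p = 0.861). TUBA8, 3435 bases before USP18, passed with neither siRNA (0.80 and 1.04, adjusted p = 0.341 and 0.168 from edgeR). TRAIP, on the other side of UBA7 on chromosome 3, passed with neither siRNA (-0.06 and -0.04, adjusted p = 0.774 and 0.849 from edgeR).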
